A study of Mus musculus with 21 samples.

Results

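The genes described here are P2rx7, P2rx4, Entpd1, Nt5e, Adora2a and Ada, which encode proteins that sense, produce or remove extracellular ATP and adenosine. They are 6 of the 51201 Ensembl gene IDs in the deposited gene tables, and all 6 passed the filter on low counts in both cell types. They were chosen by symbol, with earlier results of these data known. Polyadenylated RNA was measured in T cells from spleens of C57BL/6J mice on postnatal day 35. There were 6 libraries of CD4+ cells from L-gp130fl/+;CD4Cre+/- mice (L-gp130), 6 of CD4+ cells from CD4Cre+/- mice (CD4Cre), 3 of CD8+ cells from L-gp130 mice and 6 of CD8+ cells from CD4Cre mice. By label, 4 L-gp130 CD4 libraries were male and 2 female, against 1 male and 5 female with CD4Cre, so that sex was uneven between genotypes. In CD8 cells 2 L-gp130 libraries were male and 1 female, against 4 male and 2 female with CD4Cre. L-gp130 is a constitutively active form of gp130, the receptor subunit through which interleukin-6 and its relatives signal. Cre comes from the Cd4 promoter, which is active in the common precursors of CD4+ and CD8+ T cells, so that the allele is switched on in both lineages and Cre is present in every mouse of the study. CD4+ cells were selected positively on beads and CD8+ cells were enriched by removing other cells. The labels number the mice within each group, and p-values measure the spread between these libraries.

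Stressed and dying cells release ATP, which opens P2X channels on T cells. The ectoenzyme CD39, encoded by Entpd1, cuts ATP and ADP to AMP, and CD73, encoded by Nt5e, cuts AMP to adenosine. Adenosine dampens T cell activation through the receptor encoded by Adora2a, and adenosine deaminase, encoded by Ada, removes it as inosine.

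Summed gene counts came to 17781085 to 21226510 for L-gp130 CD4 libraries and 27855757 to 35869208 for CD4Cre CD4 libraries, so that depth went with genotype without overlap. For CD8 libraries they came to 17217364 to 19476881 with L-gp130, against 17719183 to 19286396 with CD4Cre. Levels in CPM, counts scaled to library size, are from the gene tables and were normalised within each cell type. Cd4 lay at 531 to 799 CPM in L-gp130 CD4 and 669.6 to 796 CPM in CD4Cre CD4 libraries, and Cd8a at 778 to 909 CPM in L-gp130 CD8 and 952 to 1219 CPM in CD4Cre CD8 libraries. Il6st, the gene of gp130, had a log2 fold change of L-gp130 over CD4Cre of -0.32 ± 0.18 (SE) in CD4 cells (edgeR adjusted p = 0.245) and fell in CD8 cells (-0.52 ± 0.08, adjusted p = 0.00198). Whether its reads include the allele's transcript was not tested. Socs3, a gene induced by gp130 signalling, rose in both cell types (log2 1.55 ± 0.12 and 1.79 ± 0.12, edgeR quasi-likelihood test with Benjamini-Hochberg adjustment, adjusted p = 4.02e-06 and 1.23e-05). On the second principal component L-gp130 CD4 replicate 1 lay at 56.9 and the remaining CD4 libraries at -36.8 to 22.4, and it had the lowest Cd4 (531 CPM) and the highest Cd8a (93.7 CPM) of the 12. Cd8a lay at 15.1 to 93.7 CPM in L-gp130 CD4 and 7.75 to 13.9 CPM in CD4Cre CD4 libraries, without overlap. Its log2 fold change of 1.30 ± 0.46 did not pass (edgeR adjusted p = 0.07). Reads of Xist and Ddx3y went against the labelled sex in CD4Cre CD4 replicate 5. Among CD8 libraries CD4Cre replicates 1 to 3 lay at -27.9 to -23.4 on their second component, and replicates 4 to 6 at 6.86 to 31.3.

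P2rx7 showed the largest rise of the 6 genes in both cell types. It encodes P2X7, a cation channel opened by high ATP that can shed L-selectin and kill T cells. In mouse T cells it can also be opened by ADP-ribosylation from NAD by the ART2 enzymes. The C57BL/6 allele is known for a lower sensitivity to ATP. P2rx7 (ENSMUSG00000029468) lies on chromosome 5 from 122643911 to 122691432 on the plus strand (GRCm38), and P2rx4 starts 16112 bases downstream of its end on the same strand.

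In L-gp130 CD4 libraries P2rx7 had a lowest value of 190.3, a median of 228 and a highest value of 249.8 CPM, against 66.2, 89.7 and 98.8 CPM in CD4Cre CD4 libraries. In CD8 cells the 3 L-gp130 libraries had 82.7, 84.2 and 80.1 CPM, against a lowest value of 14.7, a median of 18.7 and a highest value of 31.8 CPM in CD4Cre libraries. The genotypes did not overlap in either cell type, with all L-gp130 values on the high side. The log2 fold change was 1.52 ± 0.10 (SE) in CD4 cells, 2.86-fold (edgeR adjusted p = 8.36e-07), and 1.996 ± 0.20 in CD8 cells, 3.99-fold (adjusted p = 0.000325). Of all 15016 genes tested in CD4 cells, 11.1% were called up and 7.75% down, and of 14254 in CD8 cells 10.5% were called up and 10.5% down. P2rx7 missed the threshold only with males alone in CD4 cells, where 4 L-gp130 libraries stood against 1 CD4Cre library (log2 1.64, adjusted p = 0.0674).

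In bulk RNA a different mix of T cell states and a different amount of RNA per cell cannot be told apart, and markers of such states moved with P2rx7. In CD4 cells all 8 follicular helper markers rose, with summed levels of 550.5 to 793 CPM in L-gp130 and 243 to 289 CPM in CD4Cre libraries, and 4 of 9 effector-memory markers rose (1275 to 2222 CPM in L-gp130 and 954 to 1199 CPM in CD4Cre libraries). In CD8 cells 6 of the 8 follicular helper markers rose as well, with sums of 222 to 251 CPM in L-gp130 and 137 to 151 CPM in CD4Cre libraries, and 7 of 9 effector-memory markers rose and 1 fell (2330.3 to 3081 CPM in L-gp130 and 1836 to 2113 CPM in CD4Cre libraries). Of 9 naive T cell markers 5 fell in CD4 and 6 in CD8 cells, with sums of 2556 to 5358 CPM in L-gp130 and 5189 to 6230 CPM in CD4Cre CD4 libraries and of 4569 to 5403 CPM in L-gp130 and 5942 to 6426 CPM in CD4Cre CD8 libraries. The shares over all genes were 11.1% up and 7.75% down in CD4 cells, and 10.5% up and 10.5% down in CD8 cells. None of these lists had a marker at 0 in any group. Their part in the rise of P2rx7 was not tested.

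**Figure D1:**
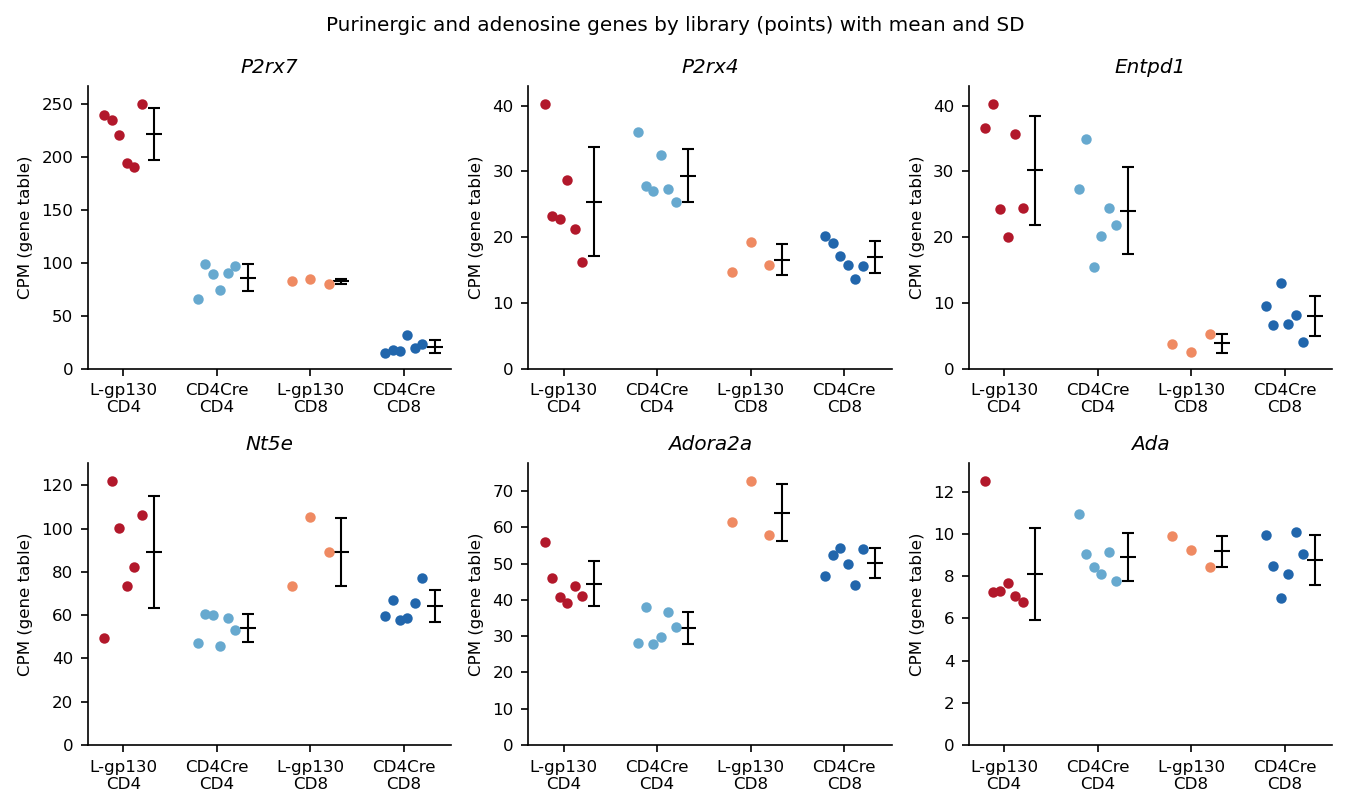
Level of each of the 6 genes in CPM of the gene tables (vertical axis) in the 4 groups (horizontal axis), 1 point per library, with mean and SD in black. CD4 and CD8 libraries were normalised separately. P2rx7 and Adora2a do not overlap between genotypes in either cell type, and Ada and P2rx4 have their highest CD4 value in L-gp130 replicate 1.

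Mouse T cells are known to use P2X7 forms that begin with different first exons, and the files hold values for each annotated P2rx7 transcript. The upstream form (ENSMUST00000100737.9) is a coding transcript of 4936 bases and 13 exons, and the downstream form (ENSMUST00000199371.1) starts 6513 bases further along with a first coding exon of its own. They share the other 12 coding exons. The retained-intron form (ENSMUST00000197042.1), so annotated, lies wholly inside an exon of the upstream form, and the short form (ENSMUST00000086247.5) is a coding transcript of 712 bases and 4 exons that begins with the upstream form's first coding exon. The first coding exons are shown because they separate the coding sequences of the long forms. In total length these also differ, at 4936 bases for the upstream and 1848 for the downstream form. The exons lie on the plus strand of GRCm38, at chr5:122644074-122644198 for the upstream form (125 bases) and chr5:122650424-122650539 for the downstream form (116 bases). Start codons are in capitals.
Upstream form: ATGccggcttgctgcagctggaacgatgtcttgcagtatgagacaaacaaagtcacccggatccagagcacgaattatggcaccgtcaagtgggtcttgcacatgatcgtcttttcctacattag
Downstream form: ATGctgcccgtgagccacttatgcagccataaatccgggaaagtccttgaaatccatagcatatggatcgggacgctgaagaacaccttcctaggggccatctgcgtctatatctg

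The P2rx7 transcripts are given in TPM, transcript abundance per length and scaled to the library. The upstream form averaged 35.0 ± 4.81 TPM in L-gp130 and 15.6 ± 2.55 TPM in CD4Cre CD4 libraries (SD, n = 6 each), and 13.2 ± 1.16 TPM in L-gp130 CD8 (n = 3), against 3.31 ± 0.85 TPM in CD4Cre CD8 libraries (n = 6). The downstream form averaged 30.6 ± 6.01 TPM in L-gp130 and 12.7 ± 3.72 in CD4Cre CD4 libraries, and 11.2 ± 0.75 in L-gp130 and 2.57 ± 0.70 in CD4Cre CD8 libraries. The retained-intron form averaged 27.8 ± 2.53 TPM in L-gp130 and 10.9 ± 1.87 in CD4Cre CD4 libraries, and 10.4 ± 1.12 in L-gp130 and 2.48 ± 1.03 in CD4Cre CD8 libraries. The L-gp130 and CD4Cre libraries did not overlap for any of these 3 transcripts in either cell type. The short form was the lowest of the 4, at 3.98 ± 1.03 TPM in L-gp130 and 1.65 ± 0.57 in CD4Cre CD4 libraries, and 2.14 ± 0.38 in L-gp130 and 0.69 ± 0.62 in CD4Cre CD8 libraries.

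The shares of the gene's TPM were compared for these 4 of the 8 annotated P2rx7 transcripts, the ones with a mean share of at least 5% in any group. The upstream form held 34.4 ± 2.51% of the gene's TPM in L-gp130 and 37.2 ± 2.52% in CD4Cre CD4 libraries, and 34.7 ± 2.75% in L-gp130 and 36.6 ± 8.43% in CD4Cre CD8 libraries. The downstream form held 30.0 ± 3.93% in L-gp130 and 29.5 ± 4.30% in CD4Cre CD4 libraries, and 29.5 ± 1.33% in L-gp130 and 28.0 ± 3.02% in CD4Cre CD8 libraries. Over 4 transcripts and 2 cell types, 0 of 8 differences in share passed a 2-sided exact permutation test after adjustment, and 0 were under 0.05 before it. The smallest adjusted p was 0.623, for the upstream form in CD4 cells at -2.76 percentage points (exact permutation p = 0.0779). With 3 against 6 CD8 libraries the smallest p this test allows is 0.0238, or 0.19 after adjustment if 1 test alone reached it, so that a single CD8 share could not pass. Salmon splits reads between transcripts that share much of their sequence, so that an estimated share is less certain than the gene's total.

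**Figure D2:**
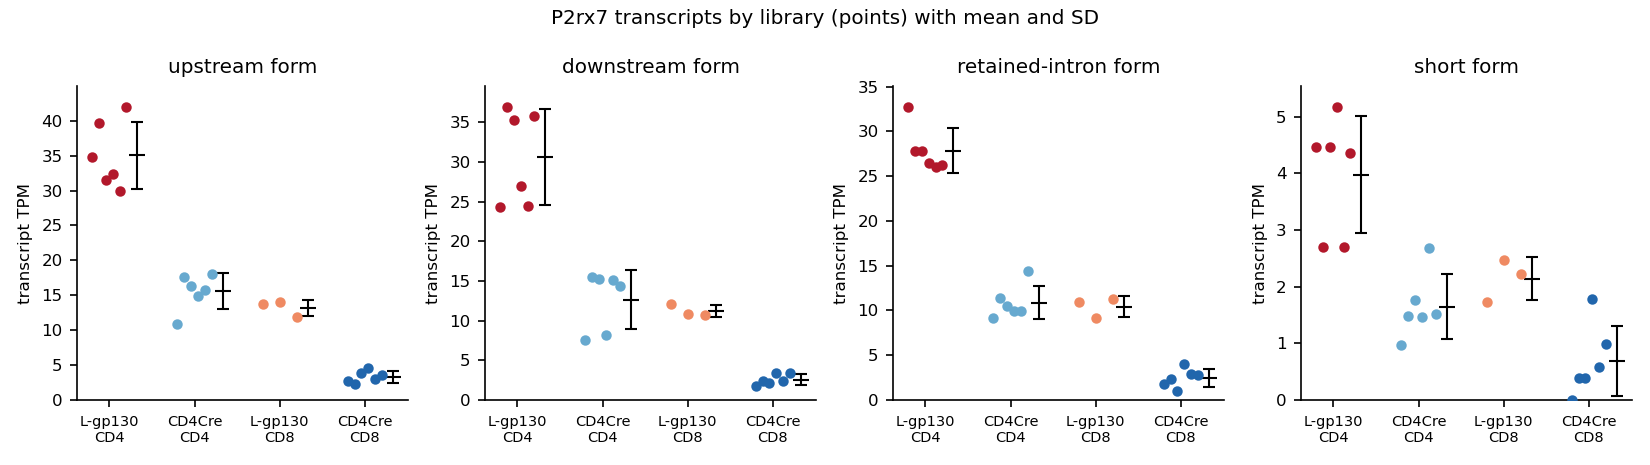
TPM of 4 annotated P2rx7 transcripts (vertical axis) in the 4 groups (horizontal axis), 1 point per library, with mean and SD in black. For the upstream, downstream and retained-intron forms the L-gp130 and CD4Cre points do not overlap within a cell type.

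RefSeq's promoter windows (GRCm38.p6, 250 bases before to 50 after a start) were available for 5 of the 6 genes, with 7 windows in all. P2rx7 has 2 windows, 1 for each of the starts above, and they are shown because transcripts of both starts had more TPM in L-gp130 libraries. The letters TTCNNNGAA, a motif bound by STAT factors that reads the same on both strands, were searched in each and put in capitals where found. The P2rx7 windows at chr5:122643677-122643976 and chr5:122650133-122650432 (plus strand) hold no match. The Ada window at chr2:163750190-163750489 (minus strand) holds 1, and it was the only match in the 7 windows. Of all 32851 promoter windows, 8.3% hold these letters.
P2rx7 upstream start: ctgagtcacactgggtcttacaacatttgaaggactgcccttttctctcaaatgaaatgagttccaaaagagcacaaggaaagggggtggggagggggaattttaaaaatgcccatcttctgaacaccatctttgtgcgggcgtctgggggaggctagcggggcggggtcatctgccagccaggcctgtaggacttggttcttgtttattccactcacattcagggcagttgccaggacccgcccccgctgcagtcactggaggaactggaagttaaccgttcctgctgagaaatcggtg
P2rx7 downstream start: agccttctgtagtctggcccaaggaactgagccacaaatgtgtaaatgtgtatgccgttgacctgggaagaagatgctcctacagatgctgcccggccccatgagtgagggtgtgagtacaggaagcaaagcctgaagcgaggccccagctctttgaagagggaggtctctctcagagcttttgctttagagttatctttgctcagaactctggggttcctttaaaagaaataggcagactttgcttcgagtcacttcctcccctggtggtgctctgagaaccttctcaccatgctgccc
Ada: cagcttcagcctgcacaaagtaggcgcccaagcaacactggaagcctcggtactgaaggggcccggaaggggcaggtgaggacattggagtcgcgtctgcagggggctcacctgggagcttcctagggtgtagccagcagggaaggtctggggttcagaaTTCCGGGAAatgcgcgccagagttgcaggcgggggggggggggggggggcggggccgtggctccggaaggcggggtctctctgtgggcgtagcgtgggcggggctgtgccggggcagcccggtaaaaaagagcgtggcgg

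P2rx4 encodes P2X4, an ATP-gated channel that opens at lower ATP than P2X7. It lies on chromosome 5 from 122707544 to 122729738 (ENSMUSG00000029470). L-gp130 CD4 libraries had 40.2 CPM in replicate 1 and 16.2 to 28.7 CPM in replicates 2 to 6, against 25.4 to 35.9 CPM in CD4Cre libraries. The groups overlapped, and 1 L-gp130 library was the highest of all 12. The log2 fold change of -0.45 ± 0.18 did not pass the test (edgeR adjusted p = 0.0923). Without L-gp130 replicate 1 it was -0.53 and passed (adjusted p = 0.00718), as it did in females alone (-0.51, adjusted p = 0.0457). In CD8 cells P2rx4 had 14.7, 19.2 and 15.8 CPM in L-gp130 libraries, inside the 13.6 to 20.2 CPM of CD4Cre libraries (log2 -0.03 ± 0.15, adjusted p = 0.908).

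Nt5e rose in both cell types, more by value in CD4 than in CD8 cells. It lies on chromosome 9 from 88327197 to 88372092 on the plus strand (ENSMUSG00000032420). The L-gp130 CD4 libraries had 49.6, 122, 100.5, 73.5, 82.5 and 106 CPM in replicates 1 to 6, and the CD4Cre libraries a lowest value of 45.9, a median of 56.0 and a highest value of 60.4 CPM. Replicate 1 lay within the CD4Cre range and the other 5 above it. The log2 fold change was 0.91 ± 0.16, 1.88-fold (edgeR adjusted p = 0.00255). In CD8 cells Nt5e had 73.5, 105 and 89.0 CPM in L-gp130 libraries, against 57.9 to 77.0 CPM with a median of 62.7 CPM in CD4Cre libraries. There 2 of 3 L-gp130 libraries lay above all CD4Cre libraries (log2 0.47 ± 0.12, adjusted p = 0.0192).

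The CD8 call of Nt5e was lost without L-gp130 replicate 2 (log2 0.31, adjusted p = 0.116) or replicate 3 (0.51, 0.0659), and without CD4Cre replicates 1 to 3 (0.42, 0.0707). In CD8 females alone, 1 L-gp130 against 2 CD4Cre libraries, the log2 fold change of Nt5e was 0.41. In CD4 males alone, 4 against 1, it was 0.66. With 1 library in a group these fits say little about the calls.

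Entpd1 passed in CD4 cells neither on the deposited gene table nor on reads, and its fold change differed in sign between them. It lies on chromosome 19 from 40612366 to 40741602 on the plus strand (ENSMUSG00000048120), and besides regulatory T cells, macrophages and other myeloid cells carry CD39. On the gene table Entpd1 had 36.5, 40.2, 24.2, 20.02, 35.6 and 24.4 CPM in L-gp130 CD4 replicates 1 to 6, against a lowest value of 15.5, a median of 23.1 and a highest value of 34.9 CPM in CD4Cre libraries. The ranges overlapped and the log2 fold change of 0.33 ± 0.25 did not pass (edgeR adjusted p = 0.376). As RPM, Salmon reads scaled to the library's total, replicates 1 to 6 of L-gp130 had 48.3, 19.2, 20.5, 24.4, 21.96 and 19.5, against 20.3 to 29.9 with a median of 26.0 in CD4Cre libraries. On this scale the high L-gp130 value was replicate 1 alone, and the sign of the fold change turned (log2 -0.23, edgeR adjusted p = 0.516). In a fit chosen after seeing the data, without L-gp130 replicate 1 and CD4Cre replicate 5, Entpd1 passed as a fall (-0.41, adjusted p = 0.00429).

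The short noncoding Entpd1 transcript ENSMUST00000155988.1, of 204 bases, weighs differently in reads and in TPM. How the gene table counts it is not known, and its part in the change of sign was not tested. In L-gp130 CD4 replicate 2, 6.12 reads, 1.58% of the gene's reads, gave this transcript 17.5 TPM or 68.2% of the gene's TPM. Over the 12 CD4 libraries it had 0 to 6.12 reads, and in CD8 libraries 0. Without this transcript Entpd1 had 8.14 to 21.2 TPM in L-gp130 CD4 libraries, with replicate 1 highest and the other 5 at no more than 9.96, and 8.04 to 14.4 TPM in CD4Cre CD4 libraries.

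In CD8 cells Entpd1 fell both on the gene table and on reads. It had 3.74, 2.48 and 5.32 CPM in L-gp130 libraries, against a lowest value of 4.08, a median of 7.43 and a highest value of 12.96 CPM in CD4Cre libraries, with 1 L-gp130 library inside that range. The log2 fold change was -1.09 ± 0.35 (edgeR adjusted p = 0.0474) on the gene table and -1.25 on reads (adjusted p = 0.0111). The gene table call was lost without any 1 of the 3 L-gp130 libraries or of CD4Cre replicates 1 to 5 (log2 -1.32 to -0.85, adjusted p 0.0648 to 0.179). It was also lost with limma-voom (adjusted p = 0.0984) and without CD4Cre replicates 1 to 3 (-0.72, 0.186). In females alone, 1 L-gp130 against 2 CD4Cre libraries, the log2 fold change was -0.67.

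Macrophage markers were summed beside Entpd1. The 12 monocyte-macrophage markers summed to 2301 RPM in L-gp130 CD4 replicate 1 and to 535 to 1095 in the other 5 L-gp130 libraries, against 630.5 to 1413 in CD4Cre CD4 libraries. In CD8 libraries they summed to 293 to 438 in L-gp130 and 369 to 787 in CD4Cre mice, and 7 of the 12 fell (Spic, Mertk, Fcgr1, Vcam1, C1qa, C1qb and C1qc) and 0 rose. In CD4 cells 0 of 12 passed either way. Over all genes tested, 11.1% were called up and 7.75% down in CD4 cells, and 10.5% up and 10.5% down in CD8 cells. None was at 0 in any group. Regulatory T cell markers, which also accompany CD39, summed to 638 to 1009 RPM in L-gp130 and 485 to 646 in CD4Cre CD4 libraries, with the lowest L-gp130 value in replicate 1, and 5 of the 10 rose there on the gene table. In CD8 cells, where Entpd1 fell, the regulatory T cell markers summed to 233 to 269 RPM in L-gp130 libraries. In CD4Cre CD8 libraries they summed to 143 to 158 RPM, without overlap. There 5 of the 10 rose (Ikzf2, Ctla4, Il2ra, Izumo1r and Foxp3) and 1 fell (Tnfrsf18). The part of either cell type in the Entpd1 values was not tested.

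**Figure D3:**
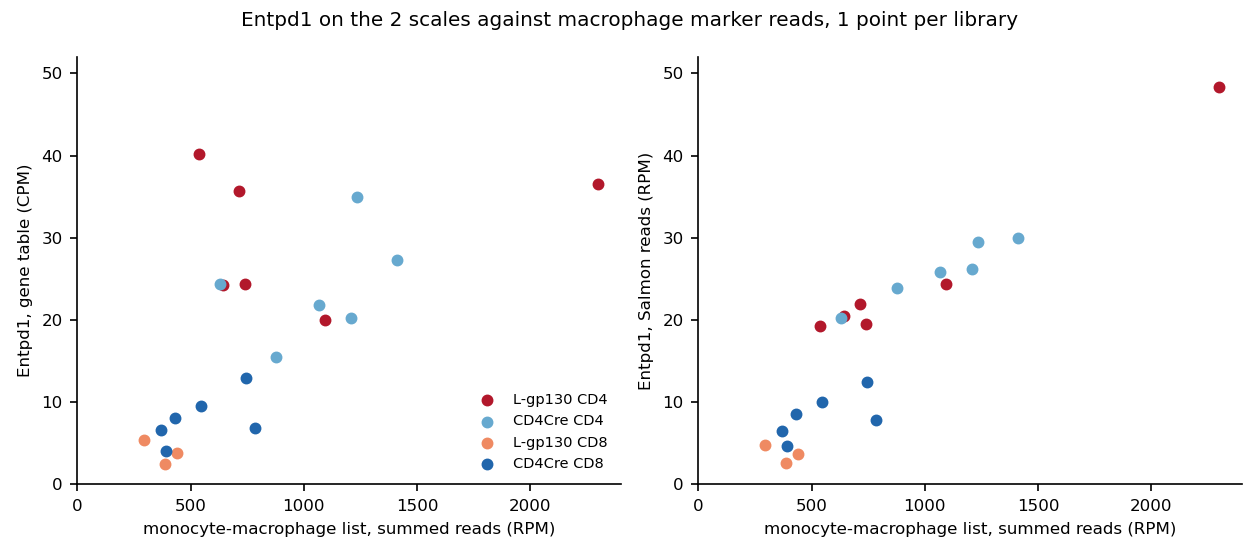
Entpd1 in CPM of the gene table (left panel, vertical axis) and in Salmon RPM (right panel, vertical axis) against the summed RPM of 12 monocyte-macrophage markers (horizontal axis), 1 point per library. L-gp130 CD4 replicate 1 has the highest marker sum, 2301, and the highest Entpd1 value by reads, 48.3. L-gp130 CD4 replicate 2 is highest on the gene table, at 40.2 CPM.

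Adora2a rose in both cell types without overlap of the groups. It lies on chromosome 10 from 75316877 to 75334784 (ENSMUSG00000020178), and the adenosine receptor it encodes raises cyclic AMP. In CD4 cells L-gp130 libraries had a lowest value of 39.1, a median of 42.5 and a highest value of 55.9 CPM, against 28.0, 31.2 and 38.0 CPM in CD4Cre libraries. In CD8 cells L-gp130 libraries had 61.4, 72.7 and 57.9 CPM, against a lowest value of 44.1, a median of 51.2 and a highest value of 54.2 CPM in CD4Cre libraries. The log2 fold changes were 0.50 ± 0.13 (1.41-fold, edgeR adjusted p = 0.0166) and 0.35 ± 0.10 (1.28-fold, adjusted p = 0.0265). In CD4 cells the lowest L-gp130 value (39.1 CPM) lay just above the highest CD4Cre value (38.0 CPM).

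The CD4 call of Adora2a was lost without CD4Cre replicate 1 (log2 0.40, edgeR adjusted p = 0.117) or L-gp130 replicate 2 (0.50, 0.0523). It was also lost in females alone, 2 L-gp130 against 5 CD4Cre libraries (0.40, 0.0598). In males alone, 4 against 1, the log2 fold change was 0.65. The CD8 call was lost without L-gp130 replicate 1 (0.38, 0.0739), L-gp130 replicate 2 (0.23, 0.149) or CD4Cre replicate 5 (0.32, 0.051). It was also lost without CD4Cre replicates 4 to 6 (0.33, 0.0642). In CD8 females alone, 1 L-gp130 against 2 CD4Cre libraries, the log2 fold change was 0.10.

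Ada did not pass in either cell type. It lies on chromosome 2 from 163726584 to 163750239 on the minus strand (ENSMUSG00000017697). L-gp130 CD4 replicate 1 had 12.5 CPM and replicates 2 to 6 had 6.77 to 7.68 CPM, against 7.77 to 10.95 CPM in CD4Cre libraries. Replicate 1 was the highest of the 12 libraries and the other 5 lay below every CD4Cre library. The log2 fold change of -0.30 ± 0.17 (edgeR adjusted p = 0.228) became -0.39 and passed without that replicate (adjusted p = 0.0281). In CD8 cells Ada had 9.90, 9.22 and 8.41 CPM in L-gp130 libraries, inside the 6.94 to 10.1 CPM of CD4Cre libraries (log2 0.07 ± 0.15, adjusted p = 0.789).

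Counted together, 3 of the 6 rose in CD4 cells with none falling, against 11.1% up and 7.75% down over all genes tested. In CD8 cells 3 rose and 1 fell, against 10.5% up and 10.5% down. The same 3, P2rx7, Nt5e and Adora2a, rose in both. Because the 6 were chosen with earlier results of these data known, these counts are a description and not a test. Whether the effects differ between the cell types was tested over all 21 libraries on reads summed per gene, as the CD4 effect minus the CD8 effect. The fit treated all libraries as independent, and whether CD4 and CD8 libraries came from the same mice was not examined. None of the 6 passed (0 of 6), against 3.46% of 15758 genes tested (1.83% up and 1.62% down), while 2 of the 6 were under 0.05 before adjustment and DESeq2 called 1. P2rx7 came closest, at -0.63 ± 0.18 (edgeR adjusted p = 0.0555), with the larger effect in CD8 cells. It passed with DESeq2 (adjusted p = 0.017), without the sex covariate (0.0297) and with sex taken from the reads (0.039). It also passed without CD4Cre CD8 replicate 4 (0.00298), L-gp130 CD8 replicate 3 (0.0312), L-gp130 CD4 replicate 1 (0.0337) or CD4Cre CD4 replicate 1 (0.0366). Entpd1 differed by 1.18 ± 0.42 (adjusted p = 0.140), and the other 4 by -0.39 to 0.35 with adjusted p of 0.319 to 0.663.

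Across the 4 groups the genes ranked differently, on CPM of summed reads in the 21-library fit. P2rx7 averaged 212 ± 28.2 CPM in L-gp130 CD4 and 84.5 ± 11.6 in CD4Cre CD4 libraries, and 92.7 ± 5.37 in L-gp130 CD8 and 22.4 ± 4.70 in CD4Cre CD8 libraries. The 3 L-gp130 CD8 values of 86.8 to 97.2 CPM overlapped the 65.3 to 95.6 CPM of CD4Cre CD4 libraries. CD4 over CD8 cells, the log2 difference was 1.18 in L-gp130 and 1.82 in CD4Cre mice (edgeR adjusted p = 1.11e-06 and 4.24e-10). Entpd1 was higher in CD4 cells by 2.75 in L-gp130 and 1.57 in CD4Cre mice (adjusted p = 3.78e-06 and 5.92e-05). P2rx4 was also higher in CD4 cells, by 0.52 in L-gp130 and 0.80 in CD4Cre mice (adjusted p = 0.00405 and 1.29e-05). In both contrasts 9 of 12 monocyte-macrophage markers were higher in CD4 libraries and 0 lower (median log2 3.17 in L-gp130 and 1.75 in CD4Cre mice). Over all genes tested, 24.9% were higher and 22.9% lower in L-gp130 mice, and 24.3% and 27.2% in CD4Cre mice. All 10 B cell markers were higher too (medians 3.32 and 3.94), and all 8 NK cell markers were lower. Of 8 erythroid markers tested, 7 were higher and 0 lower in both contrasts (medians 7.65 and 5.45). Of 9 dendritic cell markers 5 and 8 were higher and 0 lower. Of 7 stroma markers tested 6 were higher in both, with 1 lower in L-gp130 mice. The part of such cells in these differences was not tested.

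Adora2a ran the other way, lower in CD4 than in CD8 cells by log2 differences of -0.63 in L-gp130 and -0.78 in CD4Cre mice (edgeR adjusted p = 9.24e-05 and 1.91e-06). Its order was L-gp130 CD8 (68.9 ± 6.22 CPM), CD4Cre CD8 (50.9 ± 2.62), L-gp130 CD4 (44.5 ± 6.86) and CD4Cre CD4 (30.2 ± 3.86), and the middle groups overlapped. Nt5e was lower in CD4 cells of CD4Cre mice (-0.51, adjusted p = 0.0108) and did not pass in L-gp130 mice (-0.16, adjusted p = 0.478), and without the sex covariate it passed in neither (-0.37 in CD4Cre mice, adjusted p = 0.0559). Ada passed in neither (-0.34 in L-gp130 mice, adjusted p = 0.0701, and 0.05 in CD4Cre mice, 0.755), but did in L-gp130 mice without L-gp130 CD4 replicate 1 (-0.48, adjusted p = 0.00221). In L-gp130 mice 3 of the 6 were called up and 1 down between cell types, against 24.9% and 22.9% of all genes tested (47.8% called). In CD4Cre mice 3 were called up and 2 down, against 24.3% and 27.2% (51.4% called). Cell type goes with the way cells were isolated, so that the 2 cannot be told apart. Per length, gene TPM was highest for P2rx7 in L-gp130 CD4 libraries (102 ± 9.79 TPM) and lowest, with Entpd1 in CD8 cells set aside, for Ada (6.02 to 7.62 TPM over the 4 group means).

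The wider list of 46 genes for extracellular nucleotides and adenosine, which holds the 6, had 34 tested in CD4 cells, of which 7 rose and 4 fell (32.4% called, against 18.9% of all genes). Of 33 tested in CD8 cells 8 rose and 5 fell (39.4%, against 21% of all genes). The median log2 fold change was 0.15 in CD4 and 0.11 in CD8 cells, against -0.01 over all genes in each. The list was also chosen with earlier results known, so that its shares are likewise a description.

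Among enzymes at the cell surface, Alpl, tissue-nonspecific alkaline phosphatase, which strips phosphates from nucleotides, rose in both cell types and was low in all groups. It averaged 3.98 ± 1.26 CPM in L-gp130 and 1.39 ± 0.43 in CD4Cre CD4 libraries (log2 1.63 ± 0.27, edgeR adjusted p = 0.00157), and 1.75 ± 0.28 in L-gp130 and 0.67 ± 0.29 in CD4Cre CD8 libraries (1.37 ± 0.38, 0.0287). Art2b, an enzyme that modifies P2X7 using NAD, rose in CD4 cells, averaging 158 ± 25.4 CPM in L-gp130 and 99.5 ± 6.86 CPM in CD4Cre libraries (0.72 ± 0.11, 0.000618), and had 140 ± 28.8 CPM in L-gp130 and 123 ± 39.7 CPM in CD4Cre CD8 libraries (adjusted p = 0.681). Its reads can be split with the near-identical Art2a copy, which was not found in the gene tables by that symbol. Whether they were split was not tested. Cd38 and Bst1, which consume NAD, rose in CD8 cells (0.94 ± 0.12, adjusted p = 0.000647, and 1.32 ± 0.39, 0.0348). In CD4 cells their log2 fold changes were -0.28 ± 0.29 and 0.64 ± 1.20, and Bst1 had 20.7 CPM in L-gp130 replicate 1 against a group median of 1.35 CPM.

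Slc17a9, the transporter that loads ATP into vesicles, fell in both cell types. It averaged 23.2 ± 4.78 CPM in L-gp130 and 46.7 ± 3.20 CPM in CD4Cre CD4 libraries (log2 -1.07 ± 0.14, edgeR adjusted p = 0.000258). In CD8 cells it averaged 33.1 ± 3.25 in L-gp130 and 65.8 ± 4.38 CPM in CD4Cre libraries (-0.99 ± 0.09, 7.18e-05). The groups did not overlap in either cell type. Panx1, a channel through which ATP can leave T cells, did not pass (0.33 ± 0.14 in CD4, adjusted p = 0.123, and -0.03 ± 0.16 in CD8 cells, 0.928).

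Of the receptors for ADP, P2ry12 fell in CD4 cells (log2 -1.01 ± 0.23, edgeR adjusted p = 0.00907) and had -0.56 ± 0.37 in CD8 cells (0.302). P2ry13 fell in both, averaging 11.8 ± 8.19 CPM in L-gp130 and 18.0 ± 3.47 CPM in CD4Cre CD4 libraries (-1.17 ± 0.37, 0.046) and 0.67 ± 0.14 CPM in L-gp130 and 2.98 ± 0.71 CPM in CD4Cre CD8 libraries (-2.14 ± 0.34, 0.00184). In CD4 cells P2ry13 was highest in L-gp130 replicate 1, at 27.5 CPM, the library with the highest macrophage sum. In CD8 cells, where P2ry13 was low, 7 of 12 monocyte-macrophage markers fell as well and 0 rose, against 10.5% down and 10.5% up over all genes. The part of macrophages in the P2ry13 values was not tested. The other adenosine receptor genes Adora1, Adora2b and Adora3 averaged under 1 CPM in every group.

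Slc29a1, a nucleoside transporter of the cell membrane, rose in CD4 cells (log2 0.48 ± 0.11, edgeR adjusted p = 0.0112) and had 0.34 ± 0.11 in CD8 cells (0.0522). Slc29a3, its lysosomal relative, fell in both (-0.46 ± 0.10, 0.00759, and -0.81 ± 0.15, 0.0035). Ahcy, which releases adenosine inside the cell, rose in both, averaging 116 ± 15.6 CPM in L-gp130 and 78.2 ± 2.68 CPM in CD4Cre CD4 libraries (0.56 ± 0.10, 0.00184) and 156 ± 9.55 CPM in L-gp130 and 109 ± 6.71 CPM in CD4Cre CD8 libraries (0.52 ± 0.07, 0.000709). The AMP deaminases moved apart in CD8 cells, where Ampd2 rose (0.46 ± 0.10, 0.00949) and Ampd1 fell (-0.86 ± 0.26, 0.0405). Adk, adenosine kinase, did not pass (0.15 ± 0.11 in CD4, 0.363, and 0.01 ± 0.21 in CD8 cells, 0.973).

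Some of these calls were lost when 1 library was left out, with no change of sign. In CD4 cells Slc29a1 was lost without CD4Cre replicate 1 (adjusted p = 0.103) or L-gp130 replicate 6 (0.0507), with log2 fold changes of 0.31 to 0.60 over the 12 fits. P2ry12 was lost without CD4Cre replicate 1 (0.0839; -1.24 to -0.87 over the fits), and P2ry13 in 10 of 12 fits, all but those without L-gp130 replicate 1 or CD4Cre replicate 5 (up to 0.169; -1.51 to -0.95). In CD8 cells Ampd2 was lost without L-gp130 replicate 3 (0.079), with 0.38 to 0.49 over the 9 fits. Alpl was lost without L-gp130 replicate 1, 2 or 3 or CD4Cre replicate 2 or 5 (up to 0.136), with 1.23 to 1.65. Ampd1 was lost without L-gp130 replicate 2 or 3 or CD4Cre replicate 2, 3, 4 or 6 (up to 0.217), with -1.12 to -0.55. Bst1 was lost without L-gp130 replicate 2 or 3 or CD4Cre replicate 1, 2, 3, 4 or 6 (up to 0.187), with 1.11 to 1.60. Exons of Ampd2, Slc29a1, Bst1 and P2ry12 overlap a gene on the other strand by 434, 275, 98 and 9 bases, whose reads cannot be told apart in unstranded data. The 6 genes share no exon bases with another gene, except 119 bases of P2rx7 with Mir8115.

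**Figure D4:**
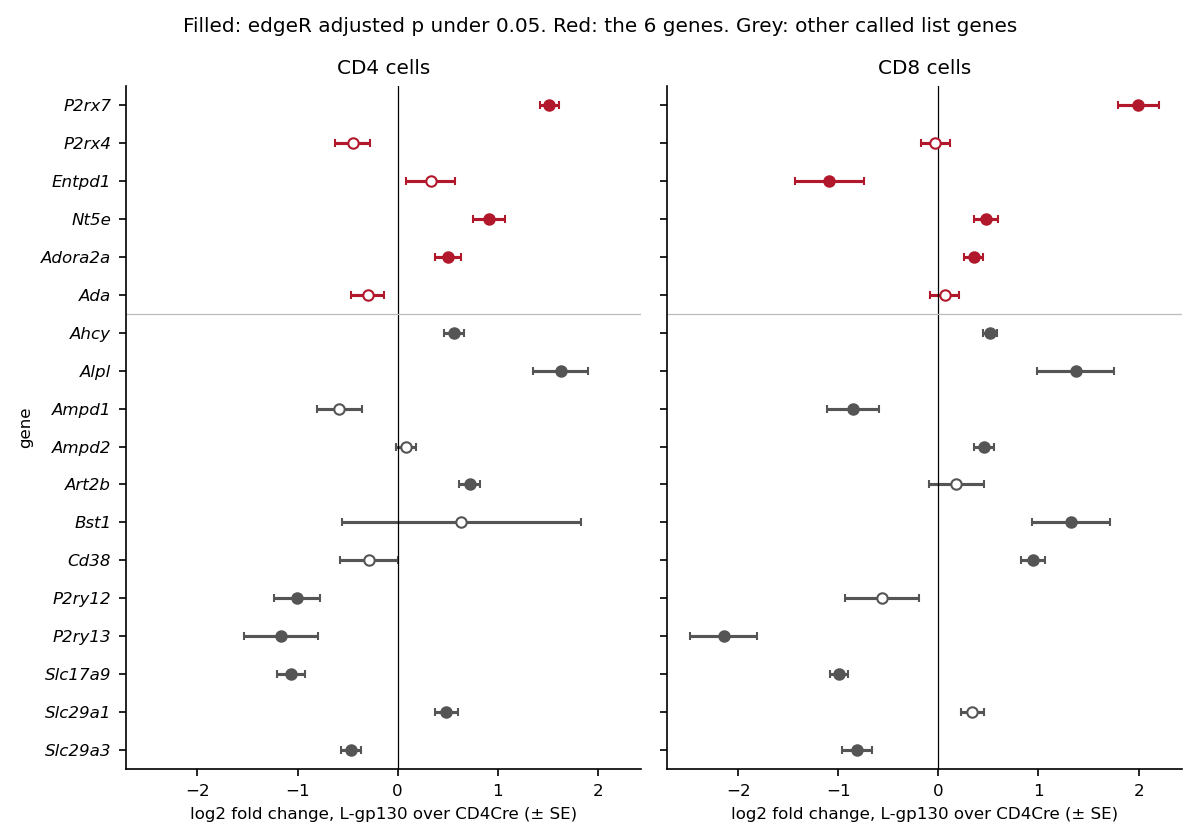
Log2 fold change of L-gp130 over CD4Cre with SE (horizontal axis) for the 6 genes, in red, and the other called genes of the list, in grey (vertical axis), in CD4 cells (left) and CD8 cells (right). Filled points passed edgeR's test at an adjusted p under 0.05. P2rx7 has the largest rise of the 6 in both panels, and Slc17a9 falls in both.

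The genes most like each of the 6 were sought over the 21 libraries among 11809 genes, as the smallest root mean square difference of centred log2 CPM. For P2rx7 they were Ptpn3, Sema7a and Ly6a (0.35, 0.37 and 0.37). For Nt5e they were Sema4f, Abtb2 and Tmem237 (0.20, 0.22 and 0.24), and for Adora2a Ptpn22, Ahcy and Lax1 (0.14, 0.16 and 0.17). For Entpd1 they were Lgmn, Hpgds and Cd300c2 (0.29, 0.30 and 0.32). For P2rx4 they were Lipe, Bcat2 and Ftl1 (0.15, 0.15 and 0.16), and for Ada Slc2a1, Dnase1l1 and Dctn2 (each 0.17). The genes' own SD over the libraries on this scale was 1.26 for P2rx7, 1.09 for Entpd1, 0.42 for Adora2a, 0.41 for Nt5e, 0.36 for P2rx4 and 0.23 for Ada.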

How the data were processed

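RNA was sequenced as paired unstranded reads, per the labels' protocols. The submitters' processing notes list cutadapt 3.4, Trimmomatic 0.39, Salmon 1.5.2, edgeR 3.34.1 and the GRCm38 build. The deposited gene tables hold the authors' estimated counts per Ensembl gene, 1 table per cell type, and no source used here says how transcripts were combined. The authors' deposited Salmon tables hold estimated reads and TPM per transcript, per the file headers.

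Estimated counts were rounded and tested with edgeR 4.0.16 (R 4.3.3), using filterByExpr, TMM factors, labelled sex as a covariate, the robust quasi-likelihood F test and Benjamini-Hochberg adjustment over all genes at 0.05, separately in each cell type. Effects between cell types came from 1 fit of 21 libraries on Salmon reads summed per gene with GENCODE mouse release 21. SE is the absolute log2 fold change divided by the square root of F. Shares of P2rx7 transcripts (mean share of at least 5% in any group) were compared by exact permutation with scipy 1.17.1. DESeq2 1.42.0, limma-voom 3.58.1, other filters, normalisations and covariates and leaving out libraries were tried as alternatives. The procedure was tested on simulated data. The 6 genes, the wider list and the markers were chosen with earlier results of these data known. Named besides the 6 were list genes called in a contrast, receptors and enzymes paired with them, and 3 genes of closest pattern each. Same-numbered mice of the 2 genotypes were not paired by the labels, and their deviations correlated at -0.21 to 0.18. No replicate pair agreed within sampling noise.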

Additional observations from a re-analysis of the deposited data

Results flagged for a closer look

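Of 72 groups of libraries tested for a value far from the others of its group, 7 had one, where chance gives about 1 in 20. All 7 were the highest of the 6 L-gp130 CD4 libraries. Among the 6 genes it was Ada, at 12.5 CPM in replicate 1. Entpd1 by reads stood at 48.3 RPM in replicate 1, as did the sum of the macrophage markers, at 2301 RPM. The retained-intron form of P2rx7 had 32.8 TPM in replicate 1. Of the wider list, P2ry13 had 27.5 CPM and Bst1 20.7 CPM in replicate 1, and Alpl had 6.48 CPM in replicate 6. Replicate 1 also had the highest Cd8a of the CD4 libraries, at 93.7 CPM.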

How the results depend on the processing

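P2rx7 gave log2 fold changes of 1.37 to 1.64 in CD4 cells and 1.72 to 2.34 in CD8 cells over all alternatives. Of the 6 genes in CD4 cells, 3 rose and 0 fell, against 0 up in males alone, and 1 down in females alone, 2 down without L-gp130 replicate 1 and CD4Cre replicate 5 (both libraries) and 3 down on Salmon reads without both. On Salmon reads Entpd1 reversed to -0.23, and to -0.41 without both. The list (7 up, 4 down) had 0 up and 0 down in males alone, 8 down in females alone or without both libraries, and 10 down on Salmon reads without both. With counts thinned to equal depth 3 of the 6 rose and 0 fell. Leaving out 1 library gave 2 to 3 of the 6 up and 0 to 2 down, and 5 to 8 list genes up and 3 to 8 down.

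In CD8 cells, where 3 rose and 1 fell, 0 fell with limma-voom, in females alone or without CD4Cre replicates 1 to 3, and 1 rose in females alone. The list (8 up, 5 down) had 1 up and 0 down in females alone and 5 up in males alone. Without CD4Cre replicates 1 to 3, P2rx4 reversed to 0.14. Leaving out 1 library gave 1 to 3 up and 0 to 1 down, 4 to 8 list genes up and 3 to 4 down, and P2rx4 at -0.15 to 0.066. Several of these fits have few libraries of 1 sex or genotype. Males alone left 1 CD4Cre CD4 library, and females alone left 1 L-gp130 CD8 library.

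For the difference between cell types, 1 of the 6 was called down without the sex covariate, with sex from reads, with DESeq2 and without both libraries, and 0 to 1 leaving out 1 library. CD4 over CD8, 1 was down in CD4Cre mice without the sex covariate, where Ada reversed to -0.058. In L-gp130 mice 2 were down without both libraries and 1 to 2 leaving out 1 library, with Nt5e at -0.28 to 0.028. For transcript shares, in percentage points, the retained-intron form of P2rx7 in CD4 cells reversed to -0.243 without both libraries. Leaving out 1 library, the short form ran from -0.284 to 0.442 in CD4 and -2.02 to 0.45 in CD8 cells, the upstream form from -3.30 to 1.16 and the retained-intron form from -1.38 to 2.75 in CD8 cells, and the downstream form from -0.799 to 1.79 in CD4 cells. The cause of these changes was not tested.

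With the replicate number as a block, 3 of the 6 rose and 0 fell in CD4 cells, with 8 list genes up and 4 down. In CD8 cells 2 rose and 1 fell, with 7 up and 4 down. Adora2a in CD8 cells had 0.32 (adjusted p = 0.0554) under the block. Of the numbers, 2 in CD4 cells and 3 in CD8 cells alone correlated best with their own, which gave no sign that the numbers pair the mice. With so few mice this check cannot exclude pairing. The alternatives without CD4Cre CD8 replicates 1 to 3 or 4 to 6, and on Salmon reads without both CD4 libraries, were chosen after seeing the data.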
